A study of Homo sapiens with 4 samples.

Results

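YAP1, its paralogue TAZ (gene symbol WWTR1), 3 of the TEAD transcription factors and 5 of their well-known target genes (CTGF, CYR61, ANKRD1, AMOTL2 and AJUBA) were followed in 786-O cells with and without forced expression of PRDM16. The 10 genes were chosen by name, and each was found once among the 56753 loci of the expression table. A locus naming only that gene was present for 8 of them. AMOTL2 shared a locus with the pseudogene RPL39P5, and AJUBA shared one with HAUS4, MIR4707 and RP11-298I3.5, so the values of these 2 loci are sums over the genes named. All 10 loci passed the filter on low values, a mean of at least 1 FPKM (a fragment count corrected for transcript length and library size) over the libraries.

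The study used RNA-seq of total RNA from 786-O, an established human clear cell renal cell carcinoma line that lacks functional VHL, grown as adherent culture. One group carried a control vector and the other a PRDM16 lentivirus, both by stable transduction, with 2 libraries in each. PRDM16 is a zinc finger protein that regulates transcription, and the purpose was to find what its overexpression does to the transcriptome. The promoter driving PRDM16, the number of clones and whether the replicates were separate cultures are unknown from the sources used here, so the p-values cover the spread among these libraries alone, and that spread may be technical.

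YAP and TAZ are coactivators that do not bind DNA themselves. In the Hippo pathway, MST kinases act through LATS kinases, which phosphorylate YAP and TAZ and keep them in the cytoplasm. When the kinases are quiet, on a stiff matrix or in sparse culture for instance, YAP and TAZ enter the nucleus and bind TEAD factors, which switch on growth and matrix genes. Much of this control acts on protein location, which RNA-seq does not measure, so target gene RNA is the usual readout. CTGF, CYR61 and ANKRD1 also respond to other inputs, such as TGF-beta, serum and mechanical load.

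The libraries were alike in summed values, from 556213 to 574003 FPKM, and the lowest values placed their depths within 1.39 times of each other. PRDM16 itself was at 0.0157 and 0.234 FPKM in the control vector libraries and at 1226 and 1146 FPKM in the PRDM16 libraries. Of 8 markers of the renal carcinoma line, 7 passed the filter in these cells, and CA9 did not. PAX8, a renal lineage factor, lay between 169 and 208 FPKM in the 4 libraries. The 6 leukocyte and 5 endothelial markers stayed at or below 0.275 FPKM in every library. Among 5 fibroblast markers the defining gene DCN was listed at 0 in all 4 libraries. PDGFRA was read only in a locus with 4 names, shared with FIP1L1, AC098587.1 and RP11-231C18.3. That locus was at 31.1 to 39.6 FPKM, and its values do not separate the genes. LUM, at up to 2.32 FPKM, and COL1A1, at up to 2.14 FPKM, are read in loci of their own and passed the filter, both with overlapping groups, and PDGFRB did not pass. The summed level of the fibroblast list was 37.0 and 35.6 FPKM with the control vector and 42.6 and 44.4 FPKM with PRDM16. Most of this sum came from the locus shared with FIP1L1, so it is not a measure of fibroblast RNA alone. A part of fibroblast RNA in the values of CTGF, which fibroblasts also express, was not tested. Control vector replicate 2 stood apart from the other 3 libraries, with the lowest value of all 14 cell cycle genes and the highest of all 12 ATF4 and unfolded protein response genes examined. Among the 10 loci studied here control vector replicate 2 was lowest in 6 and highest in 1, with no share over all loci to set beside these counts. The part of that library's state in their values was not tested.

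None of the 10 loci passed the test between PRDM16 and control vector (limma, adjusted p from 0.689 to 0.997 over 13246 loci). Across all tested loci 3 were called, which is 0.0226%. At an unadjusted p under 0.05 there was 1 of 10, CTGF, against 6.12% of all loci. For CTGF and ANKRD1 each PRDM16 library exceeded each control vector library, and the reverse held for the AMOTL2 and AJUBA loci. These 4 of 10 compare with 41.4% of all loci whose groups did not overlap, so the share is near the background. The values are from bulk RNA, in which fewer expressing cells and less RNA per cell cannot be told apart. The median log2 change of the 10 was 0.00648, against 0.00399 over all tested loci, and the median absolute change was 0.14 against 0.13. A two-sided exact permutation test of 2 against 2 libraries cannot go below p = 0.333, so only model p-values are given.

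**Figure D1:**
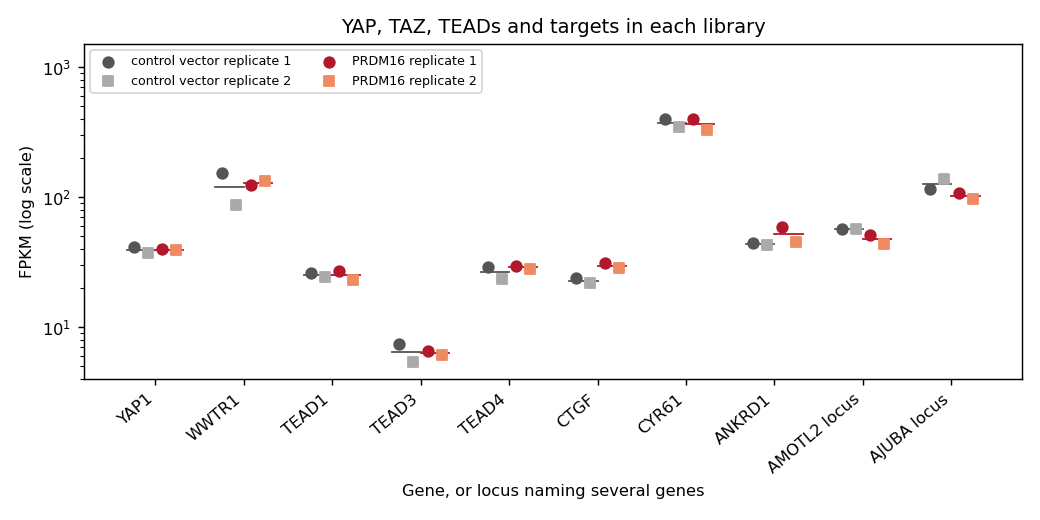
FPKM (log axis) of the 10 loci in each of the 4 libraries, with short lines at the mean of each group of 2. CYR61 is the highest at 327 to 396 FPKM and TEAD3 the lowest at 5.36 to 7.43 FPKM, and PRDM16 points lie above the control vector points only for CTGF and ANKRD1.

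The coactivators were both expressed, with more RNA from WWTR1 than from YAP1. YAP1 was 41.2 and 37.2 FPKM with the control vector, compared with 39.7 and 39.2 FPKM with PRDM16. The PRDM16 values lay between the control vector values. Its log2 change was 0.01 (SE 0.10), with a limma 95% interval from -0.24 to 0.27, that is from 1.18-fold lower to 1.20-fold higher on the scale of log2(FPKM + 1). These intervals are for single genes and are not adjusted for the number of loci.

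WWTR1 was 153 and 87.0 FPKM with the control vector, compared with 123 and 134 FPKM with PRDM16. Again both PRDM16 values lay between the control vector values, and control vector replicate 2 was the lowest. The log2 change was 0.15 (SE 0.28), and the interval ran from -0.59 to 0.89, the widest of the 10. Leaving out control vector replicate 2 gave -0.25 and leaving out replicate 1 of that group gave 0.56, so the sign depended on which of these 2 libraries was kept. FPKM are per length, so levels of different genes can be set side by side: WWTR1 was 3.71 and 2.34 times YAP1 in the control vector libraries and 3.11 and 3.41 times in the PRDM16 libraries. YAP1 is annotated on chromosome 11 at 102110461 to 102233423 (plus strand) and WWTR1 on chromosome 3 at 149517235 to 149736714 (minus strand). Antisense genes overlap WWTR1, YAP1, TEAD1 and CTGF in the annotation, and it is unknown from the sources used here whether the counting used strand.

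TEAD proteins are the DNA-binding partners. TEAD4 and TEAD1 made up most of the TEAD RNA in every library. TEAD1 (chromosome 11, 12674591 to 12944483) was 26.2 and 24.2 FPKM with the control vector, compared with 27.0 and 23.0 FPKM with PRDM16. The control vector values lay inside the PRDM16 values, and the log2 change was -0.02 (SE 0.12, 95% interval -0.33 to 0.30). TEAD4 (chromosome 12, 2959330 to 3040673) was 29.2 and 23.5 FPKM, compared with 29.6 and 28.0 FPKM, with a log2 change of 0.13 (SE 0.13, 95% interval -0.22 to 0.48). The low value was again control vector replicate 2, and without it the log2 change of TEAD4 was -0.02.

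TEAD3 (chromosome 6, 35473597 to 35497076) was the least abundant of the 10, at 7.43 and 5.36 FPKM, compared with 6.58 and 6.09 FPKM. The PRDM16 libraries lay between the control vector libraries. Its log2 change was 0.0017 (SE 0.17), with an interval from -0.44 to 0.45. TEAD2, the family member outside the 10, was under the filter at 0.101 and 0.0625 FPKM with the control vector, compared with 0.180 and 0.136 FPKM with PRDM16. As shares of the summed TEAD FPKM per library, TEAD1 gave 40.1% to 45.6%, TEAD4 44.2% to 49.0%, TEAD3 10.1% to 11.8% and TEAD2 at most 0.284%. The order of the shares differed only in control vector replicate 2, where TEAD1 was ahead of TEAD4.

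CTGF and CYR61 encode secreted matricellular proteins of the CCN family, which bind integrins and growth factors, and are the targets most used to read YAP and TAZ. CTGF (locus XLOC_046021, chromosome 6, 131948176 to 131951373, minus strand) was 23.7 and 21.9 FPKM with the control vector, compared with 31.0 and 28.5 FPKM with PRDM16. The groups did not overlap, and the means were 22.8 ± 1.25 and 29.8 ± 1.71 FPKM (SD, n = 2 each), 1.31-fold higher with PRDM16. The log2 change was 0.37 (SE 0.10), and the group difference was larger than the difference within either pair. The same held for the AMOTL2 and AJUBA loci. The share over all loci was not computed, so this cannot be set against the background. Groups that did not overlap were seen for 41.4% of all loci. CTGF did not pass the test over all loci (limma adjusted p = 0.689, 0.679 to 0.917 over the alternatives that keep every library). Over the 14 alternatives the log2 change ran from 0.31 to 0.43. As the groups did not overlap, leaving out 1 library could not change its sign.

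CYR61 (locus XLOC_001020, chromosome 1, 85580761 to 85583962, plus strand) was the most abundant of the 10, at 395 and 348 FPKM with the control vector, compared with 396 and 327 FPKM with PRDM16. The control vector values lay inside the PRDM16 values. The log2 change was -0.04 (SE 0.13, 95% interval -0.39 to 0.31), so the interval reaches from 1.31-fold lower to 1.24-fold higher. CYR61 was 16.7 and 15.9 times CTGF in the control vector libraries and 12.8 and 11.5 times in the PRDM16 libraries. The difference between the responses of these 2 targets was not tested.

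ANKRD1, a nuclear ankyrin repeat protein of stretched muscle and of many epithelial lines, is on chromosome 10 at 90912096 to 90921276 (minus strand). It was 44.3 and 42.4 FPKM with the control vector, compared with 59.1 and 44.8 FPKM with PRDM16. Both PRDM16 values were higher, but PRDM16 replicate 2 was close to control vector replicate 1. The means were 43.4 ± 1.33 and 52.0 ± 10.1 FPKM (SD, n = 2 each), with a log2 change of 0.24 (SE 0.15). The limma adjusted p was 0.689, and 0.679 to 0.917 over the alternatives that keep every library. Without PRDM16 replicate 1 the log2 change was 0.05, and without PRDM16 replicate 2 it was 0.44.

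AMOTL2 and AJUBA are at the same time targets and regulators of the pathway. AMOTL2 is an angiomotin family scaffold that binds YAP and holds it outside the nucleus. Its locus (XLOC_037552, with AMOTL2 on chromosome 3 at 134355874 to 134375479) was 57.1 and 56.3 FPKM with the control vector, compared with 50.9 and 43.6 FPKM with PRDM16. The groups did not overlap, with means of 56.7 ± 0.602 and 47.3 ± 5.18 FPKM (SD, n = 2 each), 1.20-fold lower with PRDM16. The log2 change was -0.26 (SE 0.11), and it was -0.15 without PRDM16 replicate 2 and -0.37 without PRDM16 replicate 1. The limma adjusted p was 0.689, and 0.679 to 0.917 over the alternatives that keep every library.

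AJUBA is a LIM domain protein that restrains the LATS kinases. Its locus (XLOC_015845, with AJUBA on chromosome 14 at 22971174 to 22982642) was 115 and 138 FPKM with the control vector, compared with 106 and 96.7 FPKM with PRDM16. The groups did not overlap, and the log2 change was -0.31 (SE 0.12). The limma adjusted p was 0.689, and 0.679 to 0.917 over the alternatives that keep every library. Control vector replicate 2 was the highest library, and without it the log2 change was -0.19. The locus also covers HAUS4, a subunit of the augmin complex of the mitotic spindle, and the values do not separate the genes.

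**Figure D2:**
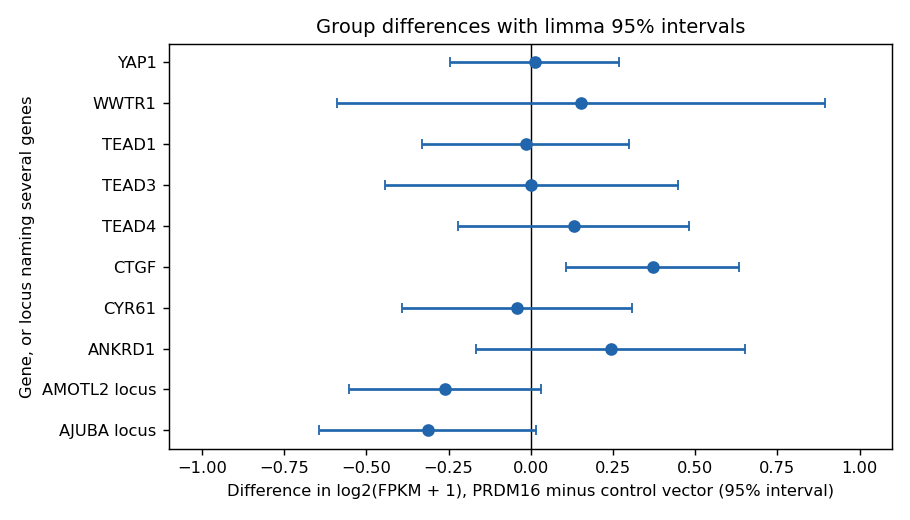
Difference in log2(FPKM + 1) between PRDM16 and control vector for each of the 10 loci (points) with limma 95% intervals (bars), unadjusted for the number of loci. All 10 intervals lie within a 2-fold change in either direction, and 9 of 10 span 0, with CTGF the exception at 0.11 to 0.63.

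Across the 4 libraries the order of mean levels was CYR61, WWTR1, the AJUBA locus, the AMOTL2 locus, ANKRD1, YAP1, TEAD4, CTGF, TEAD1 and TEAD3. CYR61 was apart from WWTR1 in every library, and TEAD3 was apart from TEAD1. The ranges of WWTR1 and the AJUBA locus overlapped, as did those of the AMOTL2 locus and ANKRD1. The ranges of TEAD4, CTGF and TEAD1 overlapped. CTGF was the lowest of these 3 in both control vector libraries and the highest in both PRDM16 libraries. YAP1 lay below ANKRD1 and above TEAD4 in all 4 libraries.

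The core letters of the TEAD binding site are GGAATG, and the stretches that hold them are shown because these letters are what TEAD factors recognise at target genes. In the stretch from 200 to 51 bases before the RefSeq start (GRCh38.p14, chr6:131951423-131951572, minus strand), printed 5′ to 3′ with the matches in capitals, there are 3 copies.
CTGF: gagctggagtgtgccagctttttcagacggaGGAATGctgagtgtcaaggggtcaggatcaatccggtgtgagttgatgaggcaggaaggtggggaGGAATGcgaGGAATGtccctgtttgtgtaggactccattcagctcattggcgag
The other members with a match are shown as 30 bases around it, also on the strand of the gene, where CATTCC is the same motif read from the other strand. ANKRD1 has 2 matches (chr10:90921290-90921319 and chr10:90921198-90921227), and AMOTL2 (chr3:134374499-134374528), AJUBA (chr14:22976884-22976913) and YAP1 (chr11:102110273-102110302) have 1 each. In GENCODE the CTGF stretch and the first ANKRD1 stretch overlie no exon, the second ANKRD1 stretch and those of AMOTL2 and AJUBA overlie a UTR exon of the same gene, and that of YAP1 overlies an exon of a long non-coding RNA on the other strand.
ANKRD1, first: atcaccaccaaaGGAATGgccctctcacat
ANKRD1, second: gacactgagtctGGAATGaaaattcacctg
AMOTL2: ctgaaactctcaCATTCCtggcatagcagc
AJUBA: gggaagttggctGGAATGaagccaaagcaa
YAP1: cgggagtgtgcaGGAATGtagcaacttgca

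RefSeq start windows were found for 7 of the 10 genes (10 windows, since AMOTL2, WWTR1 and AJUBA have 2 each), and the search covered both strands of the 250 bases before each start. CYR61, TEAD1 and TEAD4 had no window, so they were not searched. At least 1 match was present in 5 of the 10 windows, 1 for each of 5 genes, and in 11.9% of the 35116 windows of all genes. At least 2 matches, as at ANKRD1, were in 0.928% of all windows, and at least 3, as at CTGF, in 0.0797%. The windows of WWTR1 and TEAD3 and the windows farther upstream of AMOTL2 and AJUBA had no match. The AP-1 motif TGAGTCA (or TGACTCA on the other strand) was in none of the 10 windows and in 4.20% of all. A match is a description of the letters and does not show binding. CTGF and ANKRD1 were chosen as well-known targets of these factors, so their match counts beside the shares are no test.

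The Hippo kinases and their upstream regulators were all expressed, and none passed the test. Of 19 genes tested, 11 had a higher and 8 a lower mean with PRDM16, with a median log2 change of 0.02. The groups did not overlap for 9 of 19, with 3 higher (21.1% of all loci) and 6 lower (20.3% of all loci). LATS1, one of the kinases that phosphorylate YAP, was 7.68 and 8.86 FPKM with the control vector, compared with 7.50 and 7.44 FPKM with PRDM16, with a log2 change of -0.13 (SE 0.11) that ran from -0.0355 without control vector replicate 2 to -0.22 without control vector replicate 1. LATS2, its paralogue and itself a YAP target, was 6.76 and 6.33 FPKM, compared with 7.02 and 6.72 FPKM, with a log2 change of 0.06 (SE 0.10) that ran from 0.0209 without control vector replicate 2 to 0.10 without control vector replicate 1.

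The smallest p-values in that list belonged to SAV1 and the AMOT locus, the only 2 of 19 with an unadjusted p under 0.05, against 6.12% of all loci. SAV1, the scaffold that holds the MST kinases, was 6.18 and 5.96 FPKM with the control vector, compared with 4.80 and 3.53 FPKM with PRDM16. The fitted log2 change for SAV1 was -0.46 (SE 0.16, limma adjusted p = 0.689), and it was -0.29 without PRDM16 replicate 2. The angiomotin gene AMOT, read in a locus that also names MIR4329, was 3.45 and 2.49 FPKM, compared with 1.94 and 1.70 FPKM, a log2 change of -0.48 (SE 0.18, limma adjusted p = 0.689) that was -0.31 without control vector replicate 1. Its relative AMOTL1 had higher values with PRDM16, at 4.45 and 3.40 FPKM, compared with 5.07 and 5.35 FPKM (log2 change 0.34, SE 0.15, limma adjusted p = 0.689), and its log2 change was 0.19 without control vector replicate 2. The groups were apart for all 3 genes, as for 41.4% of all loci, at levels of a few FPKM. SAV1 and AMOT were picked by p-value and AMOTL1 by its likeness to CTGF, so this is no separate result.

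Among the other TEAD partners only VGLL4, which competes with YAP for TEAD, passed the filter. It was 24.0 and 27.0 FPKM with the control vector, compared with 24.1 and 20.2 FPKM with PRDM16, with overlapping groups and a log2 change of -0.20 (SE 0.13). Leaving out PRDM16 replicate 2 gave -0.08 and leaving out PRDM16 replicate 1 gave -0.32. VGLL1, VGLL2 and VGLL3 were at most 0.0995 FPKM in any library.

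Other YAP and TAZ target genes were split in direction. Of 18 genes in a commonly used target signature without the members above, 17 were tested, of which 6 had a higher and 11 a lower mean, with a median log2 change of -0.09. None passed over all loci. LATS2 and the PTPN14 locus are counted both in this list and among the Hippo regulators. The groups did not overlap for 5 of 17 (29.4%, against 41.4% of all loci), 3 higher and 2 lower. An unadjusted p under 0.05 was seen for 3, namely IGFBP3, NT5E and CRIM1, against 6.12% of all loci.

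IGFBP3, a secreted carrier of insulin-like growth factors and also a target of HIF, was 560.0 and 637 FPKM with the control vector, compared with 311 and 325 FPKM with PRDM16. Its log2 change of -0.91 (SE 0.10, limma adjusted p = 0.271) was the largest in size of the list. NT5E, the ectoenzyme CD73 that makes adenosine, was 59.7 and 54.6 FPKM, compared with 78.1 and 76.5 FPKM, with a log2 change of 0.43 (SE 0.09, limma adjusted p = 0.689). CRIM1, a transmembrane protein that binds BMPs, was named after its values were seen, at 76.1 and 71.8 FPKM, compared with 63.8 and 58.9 FPKM. Groups were apart for all 3, in opposite directions, as for 41.4% of all loci. The 3 were picked by p-value, so this is no separate result.

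**Figure D3:**
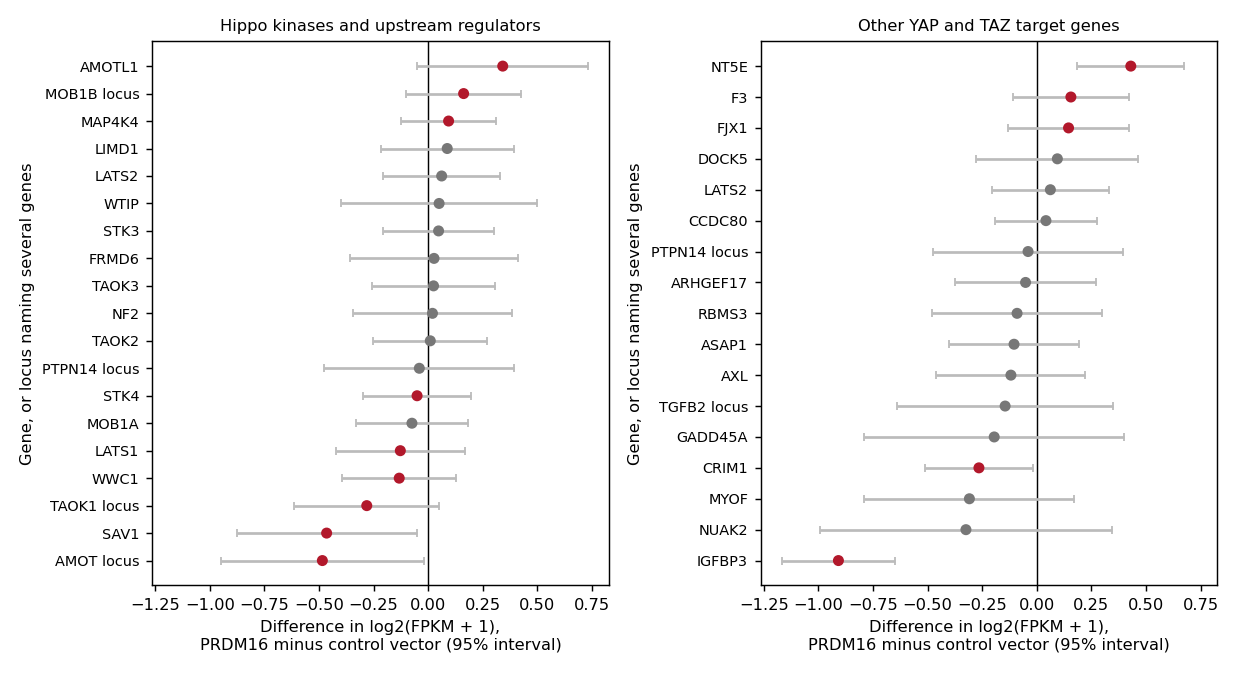
Difference in log2(FPKM + 1) between PRDM16 and control vector for 19 Hippo regulators and 17 other target genes (points, with limma 95% intervals unadjusted for the number of loci). LATS2 and the PTPN14 locus are drawn on both sides. Red points are genes whose 2 PRDM16 and 2 control vector libraries do not overlap, 9 on the left and 5 on the right, and IGFBP3 at -0.91 and NT5E at 0.43 are the ends of the target list.

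Patterns over the 4 libraries were compared with those of the 44 other tested genes of these lists, as the Euclidean distance between log2(FPKM + 1) values centred on each gene's mean. Nearest to CTGF were NT5E (distance 0.0847) and AMOTL1 (0.193), where the distance of CTGF from its own mean was 0.388. Nearest to CYR61 were TEAD1 (0.0668) and the PTPN14 locus (0.106), against 0.238 for CYR61 itself. Nearest to ANKRD1 were DOCK5 (0.177) and FRMD6 (0.222), against 0.371. With 4 libraries many genes share a pattern, so these are descriptions with no test.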

How the data were processed

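The deposited table gives 1 value per locus and library for 4 RNA-seq libraries (2 control vector, 2 PRDM16). The authors' values were taken as FPKM, a unit the table's header does not name. That reading rests on the tools and on values that are not whole. Per the submitters' processing notes, reads were handled with TopHat2 2.1.0, Cuffdiff, Cufflinks 2.2.1 and Trim Galore on hg38. The annotation, the filters and how libraries were scaled are unknown from the sources used here. Absolute depth is unknown, so no counting interval is given. Relative depth is the most frequent ratio of values under 0.3 FPKM.

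Members were matched to loci whose comma-separated names include the gene. Loci with a mean of at least 1 FPKM were tested with limma 3.58.1 in R 4.3.3 on log2(FPKM + 1), with a variance trend, a two-sided moderated test and Benjamini-Hochberg adjustment over all of them at 0.05. The pseudocount understates the change of low genes. The script was tested on simulated data, where it recovered very few changes of 0.5 in log2. Changes as small as those of the members would thus mostly go uncalled. The members and lists were chosen with earlier results of these data known.

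Beyond the members, genes were named by a rule: TEAD2, VGLL4, LATS1, LATS2, the 2 smallest p-values of each list, and the nearest patterns to CTGF, CYR61 and ANKRD1 among tested genes. Coordinates are from GENCODE on GRCh38, start windows from RefSeq on GRCh38.p14. Alternatives were other pseudocounts, filters, scalings and variance models, the replicate number as a block, and leaving out each library. Python 3.11.15, pandas 2.3.3, numpy 2.4.6 and matplotlib 3.10.9 were used.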

Additional observations from a re-analysis of the deposited data

How the results depend on the processing

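None of the 10 loci was called under any of the 14 alternatives. The number of called loci, 3, was 6 when the variance trend was dropped, 5 each with robust variances, with a pseudocount of 0.1 and with the replicate number as a block, 1 with no filter, and 16 to 39 when 1 library was left out. The cause was not tested. The labels do not say that the replicate numbers mark shared cultures or days, and deviations of same-numbered libraries had a correlation of -0.06 over 13246 loci. The median log2 change of the 10 ran from -0.10 (without control vector replicate 2) to 0.14 (without control vector replicate 1). Groups of the 10 loci that did not overlap numbered 4, or 3 after quantile normalization. No log2 change of CTGF, ANKRD1, AMOTL2 or AJUBA changed sign. Their groups did not overlap, so leaving out 1 library could not change it. The log2 changes of the other 6 changed sign in at least 1 setting. YAP1 was at -0.0265 after quantile normalization, TEAD3 at -0.0024 with median-of-ratios factors and FRMD6 at -0.0154 after quantile normalization. With 1 library left out, the log2 change ran from -0.0618 to 0.0844 for YAP1, -0.25 to 0.56 for WWTR1, -0.13 to 0.10 for TEAD1, -0.20 to 0.21 for TEAD3, -0.0205 to 0.28 for TEAD4 and -0.18 to 0.10 for CYR61. It ran from -0.25 to 0.17 for PTPN14, -0.0370 to 0.22 for DOCK5 and -0.16 to 0.21 for FRMD6. The reads behind each value are unknown, so counting error could not be separated from the spread between libraries.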
